A study of Drosophila melanogaster with 3 samples.

Results

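Long unbroken runs of FMRP sites are stretches of RNA in which every consecutive base carries a called contact of the fly fragile X protein. They were found in the deposited list of 60497 sites, each 1 nt wide, by joining sites of the same strand whose positions differed by exactly 1 on chromosomes 2L, 3L, 3R and X. Of 23405 runs of any length on these chromosomes, 68 spanned 10 or more bases, and they held 791 of 45815 sites. The runs were chosen by the called positions, and their scores come from the same call of sites, so their number, length and scores are descriptions without a test.

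The libraries behind the list were 2 immunoprecipitates of FMRP on FLAG beads, labelled FMRP UV, and 1 size-matched input, labelled FMRP smInput, from whole adult Drosophila melanogaster. Each library came from 200 pooled flies, 100 male and 100 female, ground and exposed to ultraviolet light. The labels call the cells of the immunoprecipitates intestinal progenitor cells, which are the stem cells of the gut and their undifferentiated daughters, and those of the input all cells. They name no genotype, driver, tag or age in days. The list gives 1 value per site for the series as a whole, so depth per library is unknown and no spread between libraries could be measured.

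FMRP binds many mRNAs and is best known for holding back their translation. It has KH domains and an arginine-glycine rich region that contact RNA, and its loss causes fragile X syndrome in humans. In enhanced CLIP, reverse transcription tends to stop at the base linked to the protein, so that a contact is read as a position of 1 base. A run is then a row of such positions with no gap.

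The number of runs fell with each added base up to 13 bases. There were 11906 isolated sites, 6291 runs of 2 bases, 625 of 5 bases, 96 of 8 bases and 55 of 9 bases, then 25 of 10 bases, 15 of 11, 13 of 12 and 8 of 13. Beyond 13 bases only 7 runs were found, and the longest had 21. The median long run had 11 bases. All long runs together held 1.73% of the sites on these chromosomes (95% interval 1.61 to 1.85, Clopper-Pearson, counting error only, treating neighbouring sites as independent).

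**Figure D1:**
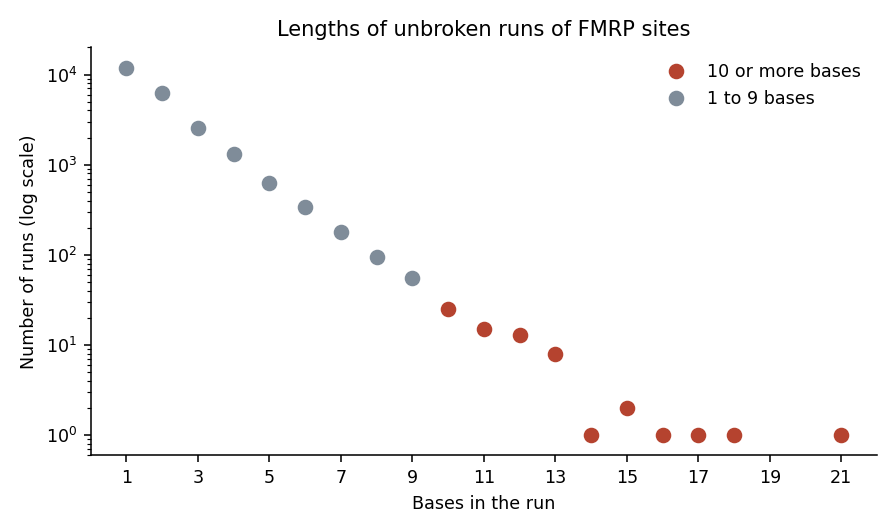
Number of runs (log scale) by the number of bases in the run on chromosomes 2L, 3L, 3R and X, with runs of 10 or more bases in red and shorter runs in grey. The points fall from 11906 isolated sites to 25 runs of 10 bases, and 7 runs lie beyond 13 bases.

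The split of long runs over the chromosomes differed in value from that of the sites, which was not tested. X held 25 of the 68 runs (36.8%) and 24.9% of sites, 2L held 15 runs (22.1%) and 20.03% of sites, 3R held 17 runs and 32.2% of sites, and 3L held 11 runs (16.2%) and 22.96% of sites. Of the 25 runs on X, 3 lay in 2 pseudogenes of ribosomal RNA. The plus strand carried 41 runs and the minus strand 27, so 60.3% of runs were on the plus strand (95% interval 47.7 to 72.0, Clopper-Pearson), while 46.8% of sites were.

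Sites in long runs had higher scores than sites in shorter ones. Each site's score was set by the authors, has no stated unit and is used here only to rank sites within the list. Its median was 7.66 in runs of 10 or more bases (quartiles 3.20 and 16.6), 5.16 in runs of 5 to 9 bases, 2.86 in runs of 2 to 4 bases and 1.53 at isolated sites. The highest score of a long run had a median of 21.6 (95% interval 17.7 to 29.4, exact binomial over runs), and 65 of the 68 exceeded the upper quartile of all sites, 6.15. A longer run offers more bases for a high score. Around the length threshold the highest score showed no step: its median over runs was 18.7 at 11 bases and 19.3 at 10, against 15.2 at 9 and 18.4 at 8.

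Among the long runs themselves, length and score were only loosely related. Spearman's rho between length and highest score was 0.21 over the 68 runs, which share 1 site call. The highest score of a run lay between 0.966, in a run of 15 bases in RpL35, and 272, in a run of 13 bases in tRNA:Leu-TAA-4-1. It exceeded 100 in 5 runs, and stayed below 10 in 7.

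**Figure D2:**
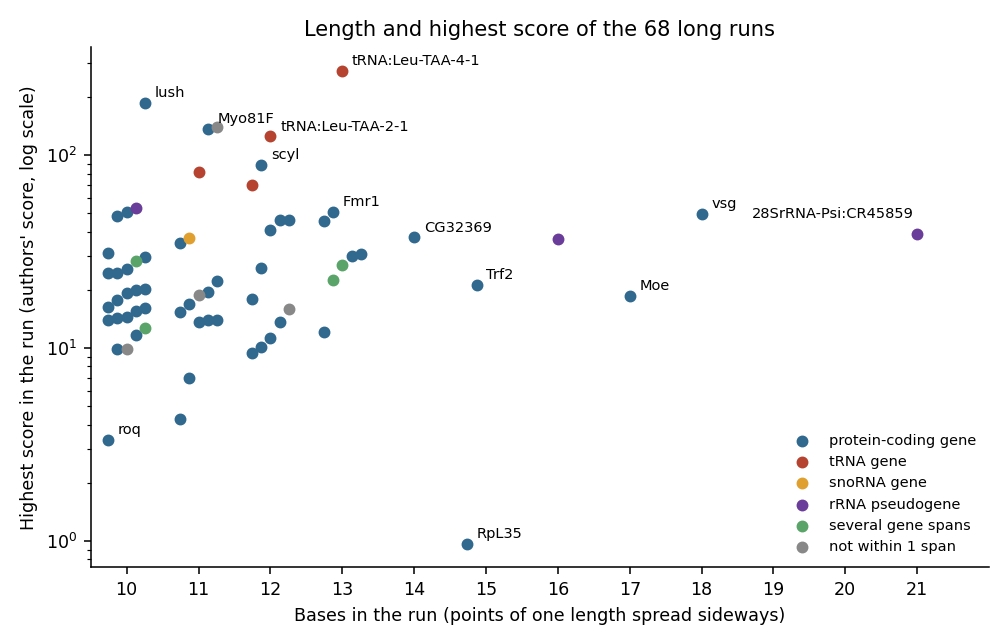
Highest score in each of the 68 long runs (authors' score, log scale) against its number of bases, coloured by the kind of gene whose span holds the run, with points of 1 length spread sideways. The highest points, tRNA:Leu-TAA-4-1 at 272 and lush at 186, have 13 and 10 bases, while the longest run, in 28SrRNA-Psi:CR45859 with 21 bases, reaches 39.0 and RpL35 with 15 bases reaches 0.966.

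Within a run the score varied strongly from base to base. The highest base scored 25.1 times the lowest in the median run (quartiles 12.6 and 50.7), and the highest base alone carried 21.3% of the summed score. Scores of neighbouring bases differed by under 5% in 64 of 723 pairs (8.85%), in 11.3% of pairs in runs of 5 to 9 bases and in 10.4% in runs of 2 to 4 bases.

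The ends of runs were low. In the median run the first base, at the 5′ end, reached 19.2% of the highest score and the last base 15.6%. The first base lay below the run's own median in 55 of 68 runs, the last base in 56, and both in 45. The highest base was an end base in 2 runs, the first base in the run shared by Kr-h1 and CG45075 and the last base in RpL35. Runs of 6 to 9 bases had end bases at 25% and 25.5% of their highest score, and had their highest base at an end in 16.5% of 672 runs. Fewer bases make an end more likely to hold the peak, so these shares are not matched for length.

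Between the ends the profile was broad. When each run was divided into 3 equal parts, the peak lay in the first part of 22 runs, the middle part of 28 and the last part of 18. The mean score of the middle part over that of the outer bases had a median of 1.30 (95% interval 1.06 to 1.49, exact binomial over runs). It was above 1 in 45 runs and below 1 in 23. The outer bases of this ratio included the low end bases, and the middle part took any bases left over. The ratio is therefore partly set by the ends. No lean towards either end was resolved: the mean score 5′ of the midpoint over that 3′ of it had a median of 1.22 (0.948 to 1.52), with 40 runs above 1 and 28 below.

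**Figure D3:**
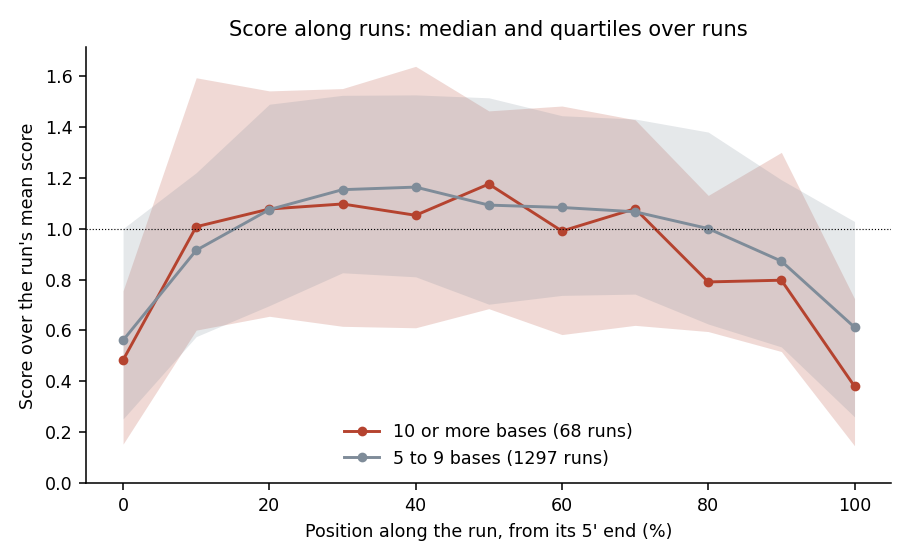
Score relative to the run's own mean, by position along the run from its 5′ end, as the median (points) and quartiles (shading) over 68 runs of 10 or more bases in red and 1297 runs of 5 to 9 bases in grey. Inside the run the median of long runs stays between 0.79 and 1.17, and it drops to 0.48 at the first base and 0.38 at the last.

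The longest run within a protein-coding gene lay in vsg, which encodes a membrane mucin. It covered 18 bases from 9717171 to 9717188 on the plus strand of 3L, in the coordinates of the site list. Its first 5 bases scored 30.4, 46.6, 43.8, 38.1 and 49.4, the next 10 lay between 2.15 and 13.4, and base 16 rose again to 34.1. Next came Moe, the moesin gene, whose protein ties actin to the plasma membrane. Its run had 17 bases from 8891865 to 8891881 on the plus strand of X and scores between 0.032 and 18.6. Another 33 sites of Moe lay on the minus strand, and the gene's own strand was not given. Trf2, a TBP-related factor of core promoters, had 15 bases with a highest score of 21.2, and CG32369 had 14 with 37.3.

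RpL35, a gene of the large ribosomal subunit, held a run with a level middle and low bases beside it. Over 15 bases from 5673067 to 5673081 on the plus strand of X, its first base scored 0.032 and its second 0.56. Each of the next 10 bases scored between 0.766 and 0.773, base 13 dropped to 0.164, and the last base had the highest value, 0.966. A stretch of 10 bases with neighbours within 5% occurred in 1 other run, that of 16 bases in the pseudogene 18SrRNA-Psi:CR41602, where bases 2 to 11 climbed from 26.5 to 36.7. Shorter even stretches of 4 bases were seen in scyl, at 87.2 to 87.9, and in Tctp, at 24.8 to 25.8.

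In lush, Fmr1 and Tet 1 base scored highest by a wide margin. Other runs had several high bases, such as Trf2 with 16.5, 17.7 and 21.2 at bases 3, 7 and 11. In lush, the gene of an odorant-binding protein needed for sensing a male pheromone, scores along the 10 bases were 1.16, 6.20, 6.82, 6.91, 10.7, 12.6, 18.3, 76.7, 186 and 4.94, so the next to last base carried 56.3% of the summed score. In Fmr1, which encodes FMRP itself, the 13 bases from 10108737 to 10108749 on the minus strand of 3R peaked at base 6 with 50.3, flanked by 29.6 and 23.9, and that base carried 22.5% of the sum. In Tet, the fly homologue of TET dioxygenases, the 13 bases also peaked at base 6, with 29.9 and 25.98% of the sum. The shares in Fmr1 and Tet lay near the 21.3% of the median run.

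**Figure D4:**
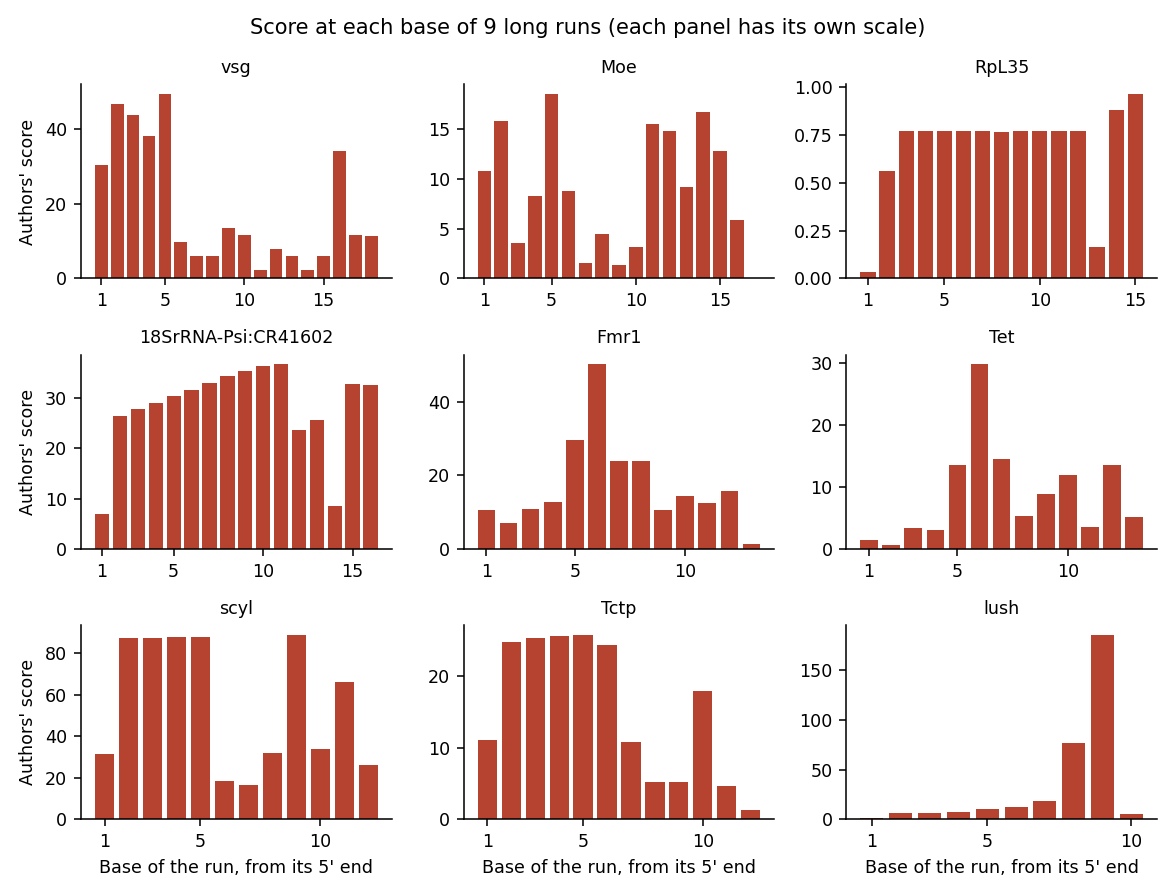
Authors' score at each base of 9 long runs, counted from the run's 5′ end, with a separate scale in each panel. RpL35 and the rRNA pseudogene show level or slowly climbing stretches of 10 bases, Fmr1 and Tet peak at base 6, and lush rises to 186 at base 9 of 10.

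Genes of structured RNAs held 8 of the 68 runs: 4 in tRNA genes, 3 in pseudogenes of ribosomal RNA and 1 in a snoRNA gene. Copies of such genes can be near-identical in sequence and share reads. No sequence was used here, so which copy a run belongs to is uncertain. Of 192 tRNA genes on the 4 chromosomes, 82 had a site, 21 had a run of 5 to 9 bases and 4 had a long run. Genes of snoRNAs had 57 with a site and 1 with a long run, and 8 snRNA and 14 miRNA genes with a site had none. Over all 1709 genes with an assigned site 3.28% held a long run, and no kind of gene was tested against that share.

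Leucine tRNAs that read UUA codons, called tRNA:Leu-TAA after the gene's anticodon, supplied 3 of the 4 runs in tRNA genes. All 4 such genes on these chromosomes had sites, and their longest runs measured 13 bases in tRNA:Leu-TAA-4-1, 12 in tRNA:Leu-TAA-2-1, 11 in tRNA:Leu-TAA-1-1 and 7 in tRNA:Leu-TAA-3-1. The 3 long runs covered the same place: counted from the 5′ end of the 84 nt gene on the run's strand, they ran from base 34 to 46, 37 to 48 and 35 to 45, with 9 bases common to all. The anticodon arm lies near the middle of a tRNA.

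Scores in the 3 tRNA:Leu-TAA genes shared a local peak at base 44, with 104 in tRNA:Leu-TAA-4-1, 125 in tRNA:Leu-TAA-2-1 and 47.7 in tRNA:Leu-TAA-1-1. They parted at base 38, where tRNA:Leu-TAA-4-1 had 272 and tRNA:Leu-TAA-1-1 had 81.0, but tRNA:Leu-TAA-2-1 had 1.90. tRNA:Leu-TAA-4-1 had nearly the same score, 271, at base 35. In tRNA:Leu-TAA-2-1 the run began at base 37, and a called site outside the run lay 2 nt upstream, at base 35. The fourth tRNA run, 12 bases in tRNA:Gln-CTG-4-1 from 14010611 to 14010622 on 2L, reached 69.5 and lay nearer the 5′ end, at bases 15 to 26 of 72. Of the other 6 tRNA:Gln-CTG genes on these chromosomes, tRNA:Gln-CTG-3-1 had a run of 8 bases, tRNA:Gln-CTG-2-4 one of 4, and the rest no site.

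**Figure D5:**
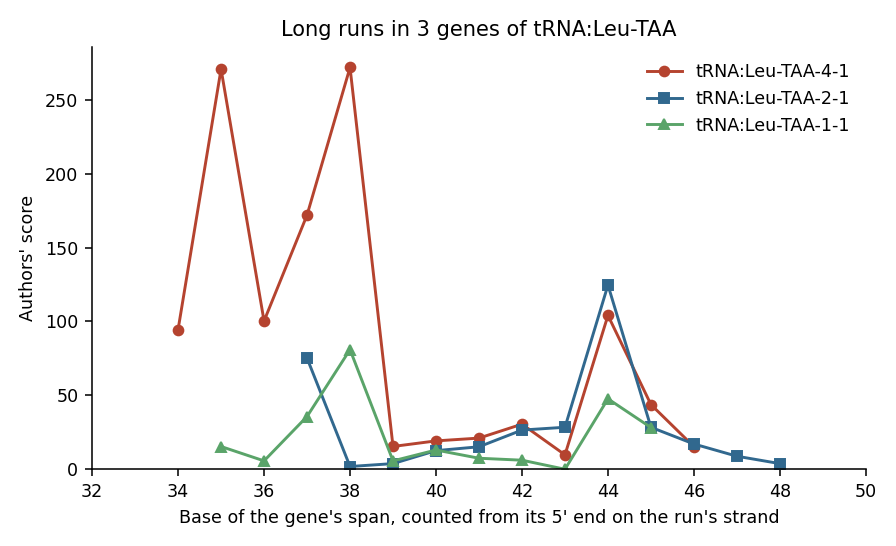
Authors' score at each base of the long runs in 3 tRNA:Leu-TAA genes, by base of the gene counted from its 5′ end on the run's strand. All 3 runs have a local peak at base 44, and tRNA:Leu-TAA-4-1 and tRNA:Leu-TAA-1-1 also peak at base 38.

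The rRNA pseudogenes lay close together on X. 28SrRNA-Psi:CR45859 held the longest run of all, 21 bases from 23214994 to 23215014 with a highest score of 39.0. 18SrRNA-Psi:CR41602 held runs of 16 and 10 bases, with highest scores of 36.7 and 52.9 and 512 bases between them. The ribosomal DNA scaffold, which is not among the 4 chromosomes, had 5 runs of 10 or more bases. The snoRNA run, 11 bases in snoRNA:Psi28S-1135f, a guide of rRNA pseudouridylation inside RpS5a, reached 37.1.

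Genes were named by RefSeq spans of Drosophila Release 6, which carry no strand and no exons, so distances along a gene assume that it lies on the strand of the run. Runs inside a small RNA gene went to that gene, and any other run went to a gene if 1 span alone held it. This placed 60 runs in 56 genes, 49 of them protein-coding with 52 runs. Another 4 runs lay in several spans, and 4 lay wholly within none. Long runs were held by 3.28% of the 1709 genes with an assigned site.

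Some long runs contained the most upstream site of their gene, counted on the strand of the run. Of 52 long runs in protein-coding genes with 10 or more sites on the strand, 14 did so (26.9%, 95% interval 15.6 to 41.0, Clopper-Pearson). Some of these runs were all of their gene's sites on the strand and so held the most upstream one by construction. Without them 11 of 49 long runs did so (22.4%). The share was 5.60% of 1036 runs of 5 to 9 bases (4.28 to 7.18), 3.87% of 8119 runs of 2 to 4 bases and 3.40% of 9559 isolated sites. A long run is itself a large part of the sites of a sparse gene: in genes with 50 or more sites on the strand it was 5 of 34 long runs (14.7%, 4.95 to 31.1), 18 of 723 runs of 5 to 9 bases (2.49%, 1.48 to 3.91), and 1.53% of isolated sites. These 5 lay in Fmr1, ps, Kdm5, pros and Stat92E. Moe, Myo81F and ps, among the 14, also had sites on the other strand, and the gene's own strand was not given. The measure was chosen after seeing the data and was not tested.

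Some of these first runs sat at the very start of the gene. The run of Tctp, an abundant, translationally controlled growth protein, began 10 nt from the 5′ end of the span, that of RpS10b, a small-subunit ribosomal protein gene, 20 nt, that of ps, the NOVA-like splicing factor pasilla, 37 nt, that of CG31740 84 nt, and that of Kdm5, a histone demethylase, 153 nt. These 5 made up 9.62% of the 52 long runs within 1 coding gene (3.20 to 21.0), where the share within 200 nt of the start was 3.74% of runs of 5 to 9 bases, 1.95% of runs of 2 to 4 bases and 2.12% of isolated sites. In Fmr1 the run began 1372 nt into the span and had 17 further sites within 50 nt, with the next site upstream 17675 nt away.

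At the other end of genes long runs were placed like other sites. Within 1000 nt of the 3′ end of the span lay 11 of 52 long runs (21.2%, 11.1 to 34.7), 22.6% of runs of 5 to 9 bases, 21.1% of runs of 2 to 4 bases and 20.6% of isolated sites. The run of Bruce, a giant ubiquitin-conjugating enzyme, ended 29 nt from it. The last 25% of the span held 23 of 52 long runs (44.2%) and 49.5% of isolated sites, and the first 25% held 12 (23.1%) and 11.3%.

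Protein-coding genes with a long run were rich in sites, with a median of 97 assigned sites (range 10 to 514), while coding genes with a site and no long run had a median of 8. The share of genes holding a long run was 24 of 90 genes with 100 or more sites (26.7%, 95% interval 17.9 to 37.0), 11 of 133 with 50 to 99 and 21 of 557 with 10 to 49. More sites give more chances of a run. Even so, many of the richest genes had none: among the 10 genes with most sites, Tet, spen and Bruce held one, whereas the longest run was 9 bases in Msp300, Syp, mamo and heca, 8 in mask and Unr, and 7 in kis.

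Members with a long run were counted in 16 lists of genes, which differ in length and were drawn up with earlier results of these data known. Their genes with a site had a median of 11 to 174 sites, depending on the list, beside 8 over all genes with a site. The 3.28% of all genes with a site that hold a long run is not matched for site number, and no list was tested. Of 29 listed genes for RNA-binding and RNA granule proteins on the 4 chromosomes, 17 had a site, with a median of 86, and 5 of these had a long run (29.4%). Of all genes, those with 100 or more sites held one in 26.7%, those with 50 to 99 in 8.27% and those with 10 to 49 in 3.77%. Most of the 17 had under 100 sites, so none of these shares is matched to the list. The 5 were Fmr1, spen, tral, a P-body component, and sqd and Hrb27C, which encode hnRNP proteins that act in mRNA localisation. tral held a pair of runs of 10 bases, 486 nt apart with no site between, which made up 20 of its 33 sites. Outside the list, further genes were picked after their values were seen, and genes of this kind without a long run were not counted. Tis11, the homologue of the mRNA decay factor tristetraprolin, had 12 bases with a highest score of 40.9 and ps had 12 with 10.1. In shep there were 11 with 6.96, and in roq, the homologue of the mRNA decay regulator roquin, 10 with 3.34.

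Of 18 chromatin regulators with a site, whose median was 19 sites, 4 had a long run (22.2%, beside 3.28% of all genes with a site). These were Tet with 13 bases, Kdm5 with 12, the BAP complex subunit gene osa with 11 and nej, the CBP acetyltransferase gene, with 10. They had 514, 119, 206 and 167 sites, in that order. Of all genes with 100 or more sites, 26.7% held a long run, but most of the 18 chromatin regulators had fewer sites than that. Of 14 insulin and TOR pathway genes with a site, 2 had one, both homologues of the TOR inhibitor REDD1. scyl had 12 bases reaching 88.9 and chrb had runs of 12 and 10 bases reaching 17.9 and 14.5, with 68 sites between them. Of 9 ubiquitin and proteasome genes with a site, whose median was 174 sites, 2 had one, Bruce with 11 bases and poe with 10. Among 5 translation factor genes with a site, the termination factor gene eRF3 had one of 11 bases. Of 13 cytoskeleton genes with a site, Moe had one, and of 5 genes listed with Tet for neurodevelopment, Tet and Fmr1 did. With 1 or 2 long runs in 5 to 14 genes, none of these lists was tested against the share over all genes.

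Further runs lay in genes that were on no list. Of these, kek5, Df31 and CG3638 were named for length, score or run bases, and the others were picked after their values were seen. mys, the integrin beta subunit gene, had 10 bases reaching 17.7, kek5, a leucine-rich repeat membrane protein gene, 13 reaching 45.4, and mmd, an ADAM metalloprotease gene, 10 reaching 31.0. Dlic, a dynein light intermediate chain gene, had 10 bases reaching 25.5, milt, the adaptor that links mitochondria to kinesin, 10 reaching 19.3, and Karybeta3, an importin gene, 10 reaching 14.3. CtBP, a corepressor gene, had 10 bases reaching 16, Tlk, a kinase gene of chromatin assembly, 10 reaching 15.5, and Df31, which encodes a chromatin-decondensing protein, 10 reaching 50.4. CG3638 held runs of 11 and 10 bases, 410 nt apart with 5 sites between, reaching 19.3 and 48.1.

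Among the lists of signalling pathways and stem cell genes, Stat92E, the transcription factor of the JAK-STAT pathway, had a run of 10 bases reaching 20.3. It was the 1 gene with a long run among 7 JAK-STAT genes with a site and among 11 intestinal progenitor genes with a site, and nej was the 1 among 11 Notch genes with a site. The lists of EGFR-Ras-MAPK, Wnt, Hippo, BTB and ecdysone response, and stress response genes had 0 among 11, 9, 10, 14 and 8 genes with a site. At the 3.28% of all genes with a site, lists of this size would hold under 1, but that share is not matched for site number. The BTB and ecdysone response genes with a site had a median of 58 sites. Genes with 50 to 99 sites held a long run in 8.27%. With so few genes and no test, neither 0 nor 1 was read as setting a list apart. The 21 ribosomal protein genes on the list had 0 of their own, since RpL35 and RpS10b were not on it and the run inside RpS5a was given to the snoRNA.

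Cell type markers were scanned in the same way. Of 7 progenitor markers on the 4 chromosomes, 6 had a site and 1 a long run, Stat92E. Of 6 enteroendocrine markers, 3 had a site and pros, the homeobox gene that sets enteroendocrine fate, had a long run of 11 bases. Lists this short hold too few genes to be read against the 3.28% of all genes with a site. Markers of enterocytes, muscle, neurons, fat body, germline and ovary, and testis had none, with 2 of 5, 4 of 7, 2 of 5, 3 of 5, 3 of 6 and 1 of 3 having a site.

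The site list shows esg, the transcription factor gene that marks intestinal progenitors, at the edge of this rule. A run of 11 bases from 15333865 to 15333875 on the plus strand of 2L had 10 bases inside the span of esg and 1 beyond it, so it was not counted for esg. Its scores were 6.92, 139, 122, 36.8, 9.12, 0.615, 76.7, 70.1, 43.5, 108 and 94.1, and its median of 70.1 was the highest of all 68 runs. A further site lay 2 nt away on each side, and 8 lay within 50 nt.

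Other runs lay outside spans or in several. Of the 3 runs wholly outside any span, that on X from 21180439 reached 15.9 over 12 bases, that on 2L from 23512832 reached 18.7 over 11, and that on X from 9916588 reached 9.81 over 10. They lay 7529, 96679 and 5462 nt from the nearest span. The runs in several spans reached 26.8 in that of Kr-h1, a hormone-responsive zinc finger gene, and CG45075, 22.6 in that of CG32544 and CG7326, 28.3 in that of CG3164, ND-15 and an antisense RNA gene, and 12.7 in that of CG42354 and CG42353.

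The target list of 1829 names comes from the same libraries as the sites, so its overlap with the runs is a description. Of the 56 genes with a long run, 55 were on it (98.2%, 95% interval 90.4 to 99.95, Clopper-Pearson), beside 71.2% of all genes with an assigned site. Genes with a long run have at least 10 sites, and of all 780 genes with 10 or more assigned sites 98.7% were on the list. The exception was lush, whose 10 sites all lay in its run. In cad, a homeobox gene of the hindgut and posterior embryo that was on the list, all 12 sites lay in the run, with scores between 1.49 and 45.8. In 26 of the 49 coding genes the gene's highest score lay in the long run, which was not tested. The share of a coding gene's sites that lay in its long runs had a median of 12.4% (range 2.14 to 100). Where all sites lay in the run, as in lush and cad, the highest score did so by construction.

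Some runs stood alone. For 10 of the 68, no other site of the same strand lay within 1000 nt on either side: Moe, CG32369, tRNA:Leu-TAA-4-1, kek5, cad, ps, Myo81F, pros, lush and a run of 12 bases on X, from 21180439 to 21180450, that lay in no span. Their highest score had a median of 41.4 and ranged from 10.1 in ps to 272 in tRNA:Leu-TAA-4-1, and the other 58 runs had a median of 20.7. The 10 runs are few and of mixed kinds, and the difference was not tested. The gap to the next site was 70134 nt upstream in Moe and 773553 nt in lush. The list gives no mappability, so repeats could not be separated from unique sequence.

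Sites on both strands were found in 6 of the 56 genes with a long run. In Moe the 17 plus-strand sites were the run itself and 33 sites lay on the minus strand. Myo81F had 12 on each strand, and mmd had 11 plus-strand sites, all within 50 nt of its minus-strand run. chrb had 128 and 4, ps 255 and 2 and nej 1 and 166 sites on plus and minus strands. Which strand is the gene's own was not given, so whether the runs of Moe, Myo81F and mmd lie on it was not tested. No long run had another long run opposite it within 50 nt.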

How the data were processed

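Enhanced CLIP libraries of 2 FMRP immunoprecipitates and 1 size-matched input were analysed through 2 lists deposited for the whole series. The site list holds, per site, the score deposited by the authors, whose unit is not stated, and a constant state. The submitters' processing notes name DESeq2, SAMtools 1.10, STAR 2.7.3a, UMI-tools and cutadapt 2.9 without their roles. No source used here gives the site caller, the genome build, any pooling or how the input was used. No library enters alone, so depth and replicate spread are unknown and no test was made. p-values were not computed.

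Sites were joined into runs with pandas 2.3.3 in Python 3.11.15. The joining and naming steps were tested on simulated data. Genes came from RefSeq Release 6. As deposited, 1137 sites lay in tRNA, snoRNA and snRNA genes, and a shift of the list by 200 nt left 294 towards lower coordinates and 288 towards higher ones. Of 1829 target names, 1753 matched a symbol, 65 a synonym and 8 a locus tag, and 3 were not matched. Named genes were those of the 10 longest and 10 highest-scoring runs, the 10 genes with most run bases, small RNA genes and members of the lists. Genes outside this rule, such as shep, roq, esg and Kr-h1, were named after their values were seen. Members and lists were chosen with earlier results of these data known. Exact intervals cover counting error over sites, runs or genes only. Base composition, motifs and gene strand were not analysed here, since no genome was used.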

Additional observations from a re-analysis of the deposited data

How the results depend on the processing

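The number of long runs followed the length threshold: 219 with a minimum of 8 bases, 28 with 12 and 6 with 15, set against 68 with 10. It fell to 42 without sites below the lower quartile of scores and to 25 without those below the median, while allowing steps of 1 or 2 nt gave 90 and using all chromosomes and scaffolds gave 91. The share of sites in runs was 4.48% with a minimum of 8 bases and 0.821% with 12. The median highest score was 30.2 with a minimum of 12 bases. The share of genes with a run on the target list was 100% with a minimum of 12 bases. The share of long runs that held the most upstream site was 14.7% in genes with 50 or more sites on the strand and 22.4% without the 3 runs that were all of their gene's sites on the strand, alternatives chosen after seeing the data. Medians of the score either side of the midpoint gave a ratio of 0.99, set against 1.22 from means. Without the 8 runs in genes of tRNAs, snoRNAs and rRNA pseudogenes the median highest score was 19.3. Under the other alternatives, values stayed within their interval or within 1.5 times the count. Alternatives on gene strand and base composition were not run, because no strand or genome was used. No replicate could be left out, since the list gives no value per library. No paired analysis was possible because the list gives 1 value per site for all libraries together.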
